A study of Mus musculus with 2 samples.

Results

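Integrins are receptors built from 1 alpha and 1 beta subunit, and 10 subunit genes with known roles in leukocyte adhesion were followed through the single-cell data of the mouse aortic adventitia: *Itgam*, *Itgax*, *Itgal*, *Itgae*, *Itga4*, *Itgav*, *Itgb1*, *Itgb2*, *Itgb5* and *Itgb7*. They were chosen by symbol, 10 of the 55386 features in the files, and each symbol had 1 row. Live CD45+ cells had been sorted from the adventitia of RankCreRosa26eYFP mice on a C57BL/6 background, aged 16 weeks, either at steady state (3 animals pooled into 1 library) or after 10 days of AngII (angiotensin II, 1.8 µg/kg/min from osmotic pumps; 2 animals pooled into 1 library). All animals carried the Cre driven by *Rank* and the eYFP reporter, which marks cells whose ancestors expressed *Rank* and is used to follow macrophages of yolk sac origin. With 1 library per condition there was no replicate, animals could not be told apart within a library, and condition and library could not be told apart. Values are therefore given with intervals that cover counting error only, and no p-value was computed.

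After the study's filter (300 to 6500 genes and at most 5% mitochondrial UMIs), 306 cells at steady state and 4198 on AngII remained, and no barcode was shared between the libraries. The AngII cells were much shallower, with a median of 1092 UMIs (unique molecular identifiers, 1 per captured transcript) against 9105. A UMI of *Ptprc*, which encodes CD45, was found in 93.8% and 63.6% of cells, at 912 and 830 CPM (a gene's UMIs per 1000000 UMIs of all genes in the same cells). Cells were gated into classes by marker genes that included no integrin. This placed 248 cells (81.0%) at steady state and 2597 (61.9%) on AngII, while 51 and 1304 cells carried markers of several classes and 7 and 297 of none. Class names below stand for cells that resemble that type by these markers. The gated macrophages carried the 10 macrophage markers at 36457 and 35341 CPM together, against 86.6 and 861 CPM in gated T cells. The gates used these markers, so this contrast follows from the gating and does not test the class names. The 10 integrin genes together took 0.143% of the UMIs at steady state and 0.140% on AngII.

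The beta 2 subunit *Itgb2* (CD18) pairs with *Itgam* (CD11b), *Itgax* (CD11c) or *Itgal* (CD11a), giving the leukocyte receptors Mac-1, p150,95 and LFA-1, which bind ICAM proteins and complement fragments in firm adhesion and phagocytosis. *Itga4* pairs with *Itgb1* (VLA-4, a VCAM-1 receptor) or with *Itgb7* (the gut homing receptor), and *Itgae* (CD103) with *Itgb7*, binding E-cadherin. *Itgav* pairs with *Itgb1* or *Itgb5*, which bind matrix proteins such as vitronectin and can release active TGF-beta. *Itgam* and *Itgax* are familiar as myeloid and dendritic cell markers in flow cytometry, and the study's own cytometric macrophage gate required CD11b and left out CD11c.

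In the GENCODE M21 annotation of GRCm38, *Itgal* (chromosome 7, 127296260 to 127335138), *Itgam* (chromosome 7, 128062640 to 128118491) and *Itgax* (chromosome 7, 128129547 to 128150657) lay on one chromosome, and *Itgam* and *Itgax* were direct neighbours, 11.1 kb apart on the plus strand. Because these neighbours did not rank the classes alike (below; steady-state cDC1 held *Itgax* but 0 UMIs of *Itgam*), and because macrophages held the highest steady-state level of *Itgb5* among the classes of at least 5 cells and the lowest of *Itgb7*, the 250 bases before the start of these 4 genes are shown, 5′ to 3′ on the gene's own strand, from the RefSeq table of GRCm38.p6. The table held 7 of the 10 genes and not *Itgal*, *Itgae* or *Itgb2*. Capitals mark GAGGAA, a core that ETS family factors such as PU.1 can bind, or its reverse complement TTCCTC.
Itgam, chr7.0:128062390-128062639, plus strand: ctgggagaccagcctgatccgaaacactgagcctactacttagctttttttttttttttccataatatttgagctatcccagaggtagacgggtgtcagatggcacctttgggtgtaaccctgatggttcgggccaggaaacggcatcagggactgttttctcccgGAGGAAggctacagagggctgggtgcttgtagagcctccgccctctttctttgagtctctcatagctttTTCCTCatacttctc
Itgax, chr7.0:128129300-128129549, plus strand: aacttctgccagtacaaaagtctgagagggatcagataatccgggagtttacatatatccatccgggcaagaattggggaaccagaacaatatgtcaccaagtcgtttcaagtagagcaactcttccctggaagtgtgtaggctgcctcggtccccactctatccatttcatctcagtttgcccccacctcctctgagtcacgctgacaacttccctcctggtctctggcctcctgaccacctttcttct
Itgb5, chr16.0:33829415-33829664, plus strand: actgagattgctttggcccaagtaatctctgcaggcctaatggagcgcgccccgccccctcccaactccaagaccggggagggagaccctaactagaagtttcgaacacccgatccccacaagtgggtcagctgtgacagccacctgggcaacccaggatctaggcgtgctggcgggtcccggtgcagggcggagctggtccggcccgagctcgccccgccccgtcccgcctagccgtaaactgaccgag
Itgb7, chr15.0:102231936-102232185, minus strand: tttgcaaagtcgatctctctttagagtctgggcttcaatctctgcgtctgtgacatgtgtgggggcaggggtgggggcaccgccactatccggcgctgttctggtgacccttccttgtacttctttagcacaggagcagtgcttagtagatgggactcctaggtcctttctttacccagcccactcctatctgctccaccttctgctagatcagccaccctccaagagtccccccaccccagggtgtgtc
The *Itgam* window held 2 matches, 1 on each strand, and the windows of *Itgax*, *Itgb5* and *Itgb7* held 0. Of the other 3 genes in the table, *Itgav* had 2, *Itgb1* had 1 and *Itga4* had 0. A match stood in 23.3% of all 32851 windows of the same length, and 2 or more in 3.54%. This describes letters in a short window and says nothing about binding.

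*Itgam* was a gene of the myeloid classes in both libraries. At steady state it stood at 317 CPM (95% interval 289 to 348) in 118 macrophages, 379 CPM in 7 classical monocytes, 356 CPM in 12 nonclassical monocytes and 341 CPM in 13 cDC2 (type 2 conventional dendritic cells), and no neighbours in that order were apart by their ratio's interval. It had 0 UMIs in 27 T cells and in 8 cDC1, and 3 UMIs in 47 B cells. On AngII it stood at 425 CPM (409 to 442) in 1474 macrophages, 453 CPM in 286 classical monocytes, 460 CPM in 127 neutrophils, 547 CPM in 22 nonclassical monocytes and 251 CPM in 144 cDC2. In 9 NK cells it stood at 170 CPM (8 UMIs), while T cells, B cells and cDC1 lay between 14.5 and 27.3 CPM. Those low levels, in cell types that mostly lack CD11b, are the range that can be read as background for *Itgam* on AngII. The summed macrophage markers in T cells there were 2.44% of their level in macrophages, a share that the gate itself limits. The plot of levels by class shows this myeloid block beside the other members.

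**Figure D1:**
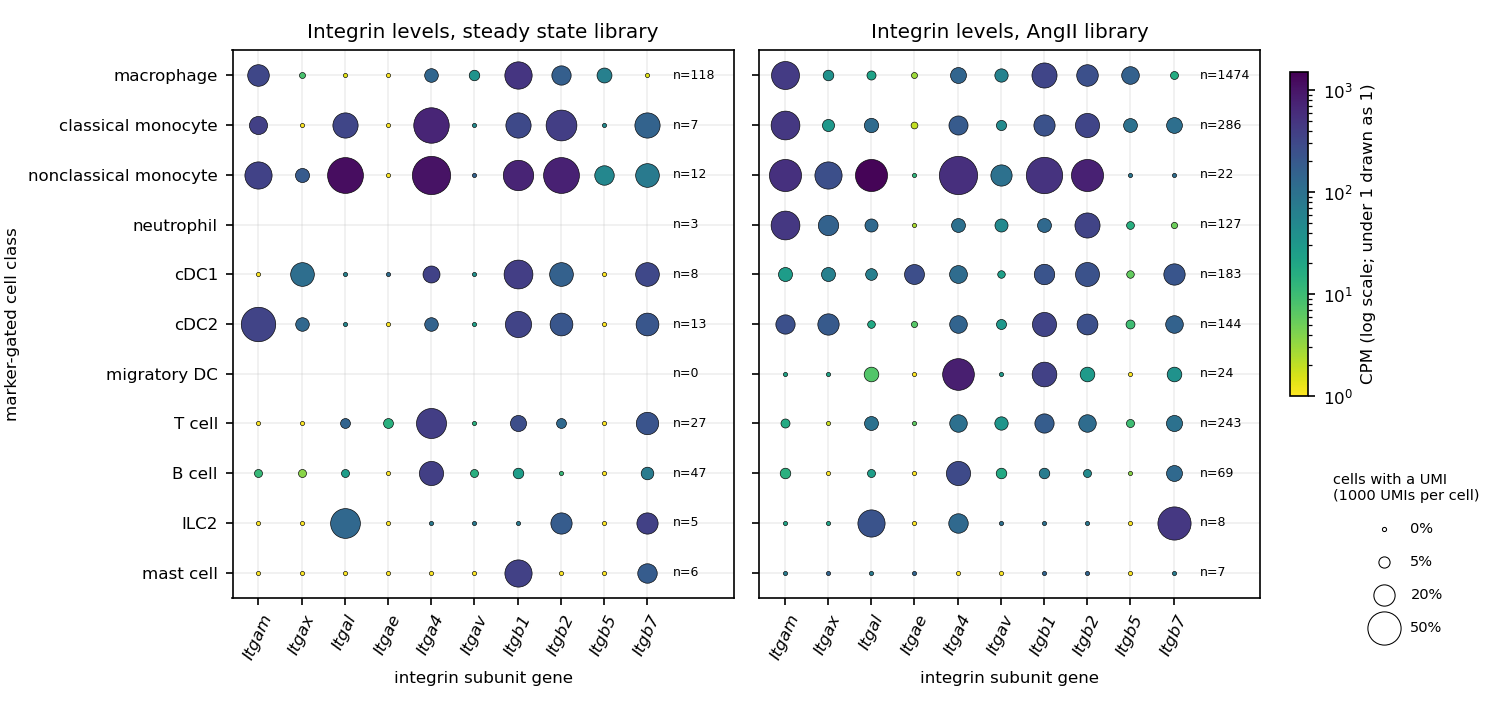
Levels of the 10 integrin genes (x axis) in marker-gated cell classes (y axis, with the number of cells n) of the steady-state and AngII libraries. Colour is CPM of the summed class on a log scale. Dot area grows with the share of cells holding a UMI, among cells of at least 1000 UMIs thinned to 1000. Classes under 5 cells are left blank. *Itgal* is highest in nonclassical monocytes (1178 and 1405 CPM), *Itgae* in cDC1 (116 and 264 CPM) and *Itgb5* in macrophages (64.3 and 159 CPM).

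*Itgax* was set apart from its neighbour *Itgam*. At steady state it was found at 187 CPM (117 to 282) in nonclassical monocytes, 132 CPM (93.7 to 180) in cDC2 and 109 CPM (63.8 to 175) in cDC1, which were not apart from each other, and at 8.29 CPM (4.28 to 14.5) in macrophages, all 12 UMIs of which came from 6 cells. On AngII it stood at 261 CPM in nonclassical monocytes, 193 CPM in cDC2, 156 CPM in neutrophils, 64.4 CPM in cDC1 and 38.3 CPM (33.6 to 43.6) in macrophages. B cells held 1 UMI at steady state and 0 on AngII, and T cells held 0 and 2. In AngII cells of at least 1000 UMIs thinned to 1000, a UMI of *Itgax* was seen in 20.2% of cDC2 and 4.38% of macrophages. For *Itgam* the share was 35.3% of macrophages.

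*Itgal* had its highest level in nonclassical monocytes, the patrolling monocytes of the vessel wall, in both libraries. They held 1178 CPM (991 to 1391) at steady state and 1405 CPM (1158 to 1689) on AngII, above every other gated class of at least 5 cells in each library by the interval of the ratio to the next. Classical monocytes held 322 CPM at steady state and 120 CPM on AngII, and T cells 144 and 97.6 CPM. Macrophages were among the lowest classes, at 1.38 CPM (2 UMIs in 118 cells) and 22.3 CPM (18.8 to 26.4). The common partner *Itgb2* was also highest in nonclassical monocytes, at 763 CPM (614 to 938) and 771 CPM (591 to 988). The next class was classical monocytes at steady state (402 CPM, apart) and 9 NK cells on AngII (469 CPM, not apart; ratio 1.65, 0.997 to 2.81), and classical monocytes held 338 CPM on AngII. It stood at 169 and 249 CPM in macrophages, 345 CPM in AngII neutrophils, 125 and 116 CPM in T cells and 11.1 and 47.1 CPM in B cells.

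*Itgae* was concentrated in cDC1, the dendritic cells that present antigen to CD8 T cells. At steady state cDC1 held 18 of its UMIs (116 CPM, 68.7 to 183; 6 of 8 cells), T cells held 3, and macrophages, monocytes, cDC2 and B cells held 0. In the 118 macrophages the floor of 3 UMIs equals 2.07 CPM, and the exact interval of 0 UMIs reaches 2.55 CPM. On AngII 320 of the library's 613 *Itgae* UMIs lay in 183 gated cDC1 (264 CPM, 236 to 295; 62 cells), against 6.79 CPM in cDC2, 6.21 CPM in T cells and 2.94 CPM in macrophages. Its partner *Itgb7* was spread more widely. It stood at 364 and 458 CPM in ILC2 (type 2 innate lymphoid cells; 5 and 8 cells), 309 and 216 CPM in cDC1, 209 and 154 CPM in cDC2, 226 and 98.5 CPM in T cells and 74.3 and 127 CPM in B cells, but at 1.38 CPM (2 UMIs) and 16.6 CPM in macrophages and 5.12 CPM in AngII neutrophils.

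*Itga4* was led by monocytes and lymphocytes at steady state, with 1043 CPM (867 to 1244) in nonclassical monocytes, 701 CPM (537 to 901) in classical monocytes, 399 CPM in T cells, 390 CPM in B cells and 354 CPM in cDC1. The first of these was apart from the second and the second from T cells, whereas T cells, B cells and cDC1 were not apart from one another in that order. cDC1 were apart from cDC2 (149 CPM; ratio 2.38, 1.57 to 3.63), which were not apart from macrophages (139 CPM). On AngII it was highest in 24 migratory dendritic cells, at 806 CPM (663 to 969), a class with 0 gated cells at steady state. NK cells (703 CPM, 9 cells) and nonclassical monocytes (560 CPM) came next, and neither was apart from the class before it. *Itgb1*, the beta subunit with the widest set of partners, was high in nonclassical monocytes (729 and 510 CPM), macrophages (487 and 333 CPM) and cDC2 (348 and 347 CPM) and low in B cells (26.0 and 72.5 CPM).

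*Itgb5* was highest in the monocyte and macrophage classes. Macrophages held 64.3 CPM (51.9 to 78.7) at steady state and 159 CPM (149 to 169) on AngII, classical monocytes 46.0 and 100 CPM, and nonclassical monocytes 50.9 and 87.0 CPM, while T cells, B cells, cDC1 and cDC2 held 0 UMIs at steady state and 3.62 to 9.80 CPM on AngII. Within AngII macrophages its level ran from 57.2 CPM in the 137 type-2-like cells (gated by *Ear2*, *Retnla*, *Tnip3* and *Lyz1*) to 222 CPM (186 to 263) in the 96 reparative-like cells (gated by *Arg1*, *Inhba*, *Fabp5*, *Mmp12* and *Gpnmb*). *Itgav* was low everywhere, at 34.6 and 60.0 CPM in macrophages, with the highest level at steady state in nonclassical monocytes (153 CPM, 18 UMIs).

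Set against T cells of the same library, macrophages differed in most tested members. At steady state 3 of 8 tested members were at least 2-fold higher in macrophages, against 31.8% of 7786 genes, and 3 lower, against 13.9%, so that 6 of 8 were apart where 45.7% of all genes were. The higher ones were *Itgam* and *Itgb5*, each with 0 UMIs in T cells and at least 22.0-fold and 4.45-fold higher against a floor of 3 UMIs (exact intervals from 17.8 and 3.55), and *Itgav* (2.40, 0.77 to 12; 3 UMIs in T cells). The lower ones were *Itgal* (0.0096, 0.0011 to 0.038), *Itgb7* (0.0061, 0.00072 to 0.023) and *Itga4* (0.35, 0.27 to 0.46). On AngII 4 of 10 were higher, against 24.2% of 11170 genes, and 3 lower, against 21.9%, where 46.1% were apart in either direction. The higher ones were *Itgam* (23.9), *Itgax* (21.6; 2 UMIs in T cells), *Itgb5* (16.3; 11 UMIs in T cells) and *Itgb2* (2.14). *Itgae* was lower by its ratio (0.47, 0.19 to 1.34; 18 and 7 UMIs), but its interval held 1. *Itgal* and *Itgb7* were again lower in macrophages (0.23, 0.18 to 0.30, and 0.17, 0.13 to 0.22), while *Itga4* was 0.35 at steady state and 1.35 (1.12 to 1.66) on AngII. *Itgb1* was higher in macrophages by the same ratio of 1.84 in both libraries (1.40 to 2.47 and 1.59 to 2.13).

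The beta subunits differed between classes as shares of the UMIs of the 4 beta genes. A UMI counts 1 tag at the 3′ end whatever the transcript's length, but genes are not captured equally well, so these shares are compared between classes rather than between genes. In steady-state macrophages *Itgb1* made up 67.5% (exact binomial interval 64.5 to 70.3), *Itgb2* 23.4% and *Itgb5* 8.90%. In AngII macrophages *Itgb1* made up 43.9% (42.5 to 45.4), *Itgb2* 32.9% and *Itgb5* 21%. *Itgb2* made up 69.9% in neutrophils, *Itgb7* 66.7% and 50.7% in B cells, and *Itgb1* 84.7% in migratory dendritic cells. The intervals of these shares for neutrophils, B cells and migratory dendritic cells do not overlap those for macrophages of the same gene and library.

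**Figure D2:**
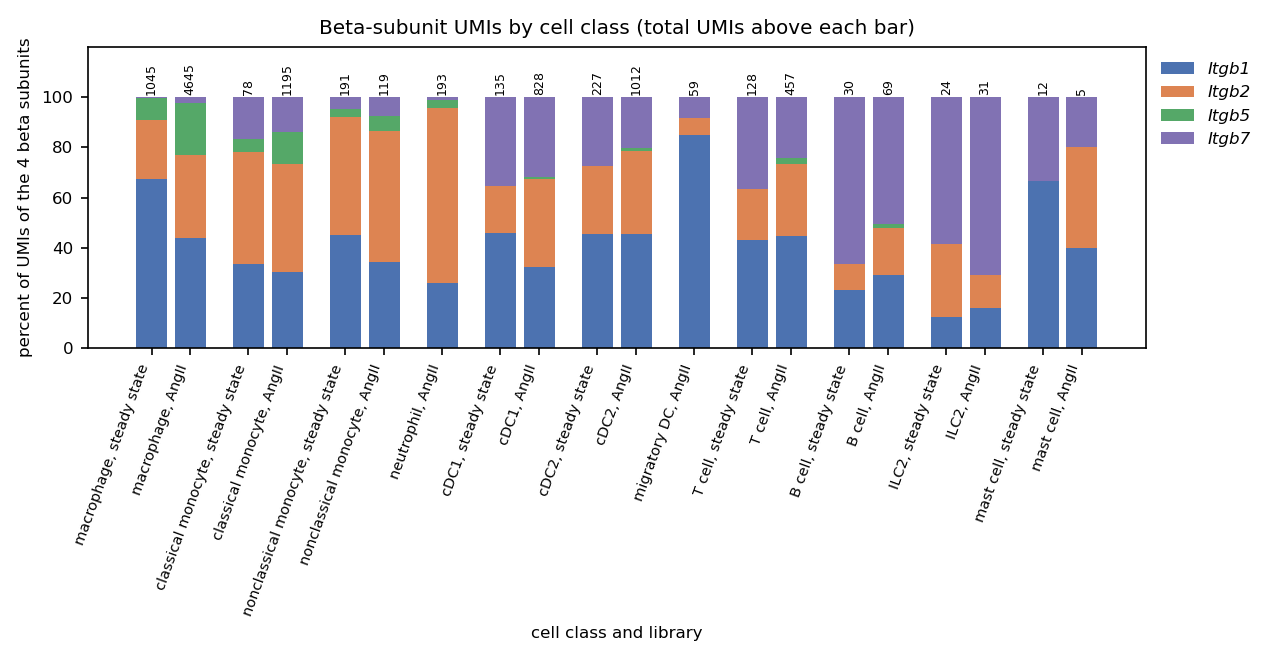
Percent of the UMIs of *Itgb1*, *Itgb2*, *Itgb5* and *Itgb7* taken by each gene (stacked bars, y axis) in each cell class and library (x axis), with the total UMIs of the 4 genes above each bar. The *Itgb1* share of macrophages is 67.5% at steady state and 43.9% on AngII, and *Itgb5* is visible mainly in macrophages and classical monocytes.

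Macrophages were then compared between the libraries. Of the 9 members with at least 20 UMIs in the macrophages of both libraries together, 4 were at least 2-fold higher on AngII (*Itgax*, *Itgal*, *Itgb5* and *Itgb7*) and 0 were lower. Over all 10979 genes with as many UMIs, 17.1% were at least 2-fold apart in either direction, 8.76% being higher and 8.31% lower. Of the 4 higher members, all but *Itgb5* passed the minimum of 20 UMIs through the AngII cells alone (*Itgax* had 12 UMIs at steady state). The median log2 ratio was 0.80 for the 9 members and -0.01 over all genes. *Itgb5* stood at 64.3 CPM at steady state and 159 CPM on AngII, a ratio of 2.48 (2.0 to 3.1). The ratio was 1.41 in cells of at least 1000 UMIs thinned to 1000. *Itgax* stood at 8.29 and 38.3 CPM, a ratio of 4.62 (2.60 to 9.07), which was 1.73 under the stricter gate. *Itgal* and *Itgb7* had 2 UMIs each at steady state and 137 and 102 on AngII, with ratios of 16.2 (4.39 to 135) and 12 (3.25 to 101), and the ratios were 1.64 and 4.65 when classes were taken from clusters. Their AngII levels in macrophages were 22.3 and 16.6 CPM, against 97.6 and 98.5 CPM in AngII T cells. The background range given above holds for *Itgam* and does not carry over to other genes, so the part of background here was not tested. All 4 kept a ratio above 1 under each alternative that gave one.

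Markers of other cells in the macrophage gate differed between the libraries as well. How many markers are found depends on the UMIs summed, 1447133 at steady state and 6131456 on AngII. Those counts are therefore not comparable between the libraries. The 9 T cell markers stood at 2.07 CPM in steady-state macrophages (3 of 9 found, with *Cd3e*, *Cd3g* and *Trac* at 0). On AngII they stood at 32.8 CPM (9 of 9 found), or 0.394% of their level in AngII T cells. *Itgal* stood at 22.3 CPM in AngII macrophages and 97.6 CPM in AngII T cells. Cells with markers of several classes were left out, so the gate itself limits the marker share. That share therefore cannot be set against the levels of *Itgal*. The 8 classical monocyte markers stood at 446 CPM (5 of 8 found) and 1430 CPM (8 of 8), which were 6.46% and 16.2% of their level in the classical monocytes of the same library. The 9 cDC1 markers stood at 144 CPM (8 of 9) and 276 CPM (9 of 9), and the 9 cDC2 markers, a class with high *Itgax*, at 1672 CPM (5 of 9, with *Flt3*, *Klrd1*, *Ccl17* and *Dpp4* at 0) and 581 CPM (9 of 9). The 7 nonclassical monocyte markers, of the class with the most *Itgal* and *Itgax*, stood at 24.9 CPM (3 of 7, with *Ace*, *Treml4*, *Cd300e* and *Pglyrp1* at 0) and 49.7 CPM (7 of 7), or 0.56% and 1.12% of their level in that class. The 9 neutrophil markers stood at 195 CPM (5 of 9) and 531 CPM (8 of 9, with *Ly6g* at 0 in both). The gate limits the other marker levels given here in the same way. The part of such other cells or their RNA in the ratios was not tested.

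The other tested members had macrophage ratios within 2-fold at full depth. *Itgam* stood at 317 and 425 CPM, a ratio of 1.34 (1.21 to 1.48), *Itgb2* at 169 and 249 CPM, a ratio of 1.47 (1.28 to 1.69), and *Itgav* at 34.6 and 60.0 CPM, a ratio of 1.74 (1.29 to 2.38), all 3 above 1 under each alternative. After thinning to 1000 UMIs the *Itgam* ratio was 2.04, past 2-fold and above the 1.41 of *Itgb5* in that setting. *Itgb1* was lower on AngII, at 487 and 333 CPM, a ratio of 0.68 (0.63 to 0.75), within 0.66 and 0.82 under the alternatives. *Itga4* stood at 139 and 142 CPM, a ratio of 1.02 (0.88 to 1.20), and its direction changed with the processing. *Itgae* had 0 and 18 UMIs.

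The gated macrophages were not the same mixture in both libraries: 103 of 118 were resident-like at steady state (by *Lyve1*, *Folr2*, *Cd163*, *Timd4* and others) and 535 of 1474 on AngII. Within resident-like cells 3 of 9 members were at least 2-fold higher on AngII, where 7.48% of 9519 genes were higher and 14.1% apart in either direction. All 3 (*Itgax*, *Itgal* and *Itgb7*) passed the minimum of 20 UMIs through the AngII cells alone. *Itgal* had 1 UMI at steady state and 48 on AngII, and *Itgb7* had 1 and 42. *Itgax* had 0 UMIs at steady state and 44 on AngII (18.1 CPM), at least 6.77-fold higher against a floor of 3 UMIs for the group (exact interval from 5.28), and *Itgb5* stood at 72.9 and 135 CPM, a ratio of 1.85 (1.45 to 2.39). *Itgb1* stood at 511 and 368 CPM, a ratio of 0.72 (0.65 to 0.80), close to the value for all macrophages. In the other macrophages (15 and 939 cells) 4 of 9 were higher, where 18% of 9462 genes were higher and 25.1% apart in either direction. These were *Itgb5* (11 UMIs at steady state), *Itgav* (2.24, 1.16 to 4.97; 9 UMIs at steady state), *Itgal* and *Itgb7*. All 4 passed the minimum of 20 UMIs through the AngII cells alone. *Itgal* and *Itgb7* rested on 1 UMI each at steady state, and the *Itgb7* interval (0.91 to 211) held 1. There *Itgb5* stood at 34.1 and 175 CPM, a ratio of 5.14 (2.85 to 10.4), and *Itgax* at 37.1 and 51.7 CPM, a ratio of 1.39 (0.78 to 2.74). *Itga4* differed in direction between the subsets, at 125 and 158 CPM in resident-like cells (ratio 1.26, 1.03 to 1.53) and 186 and 132 CPM in the others (0.71, 0.54 to 0.94).

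**Figure D3:**
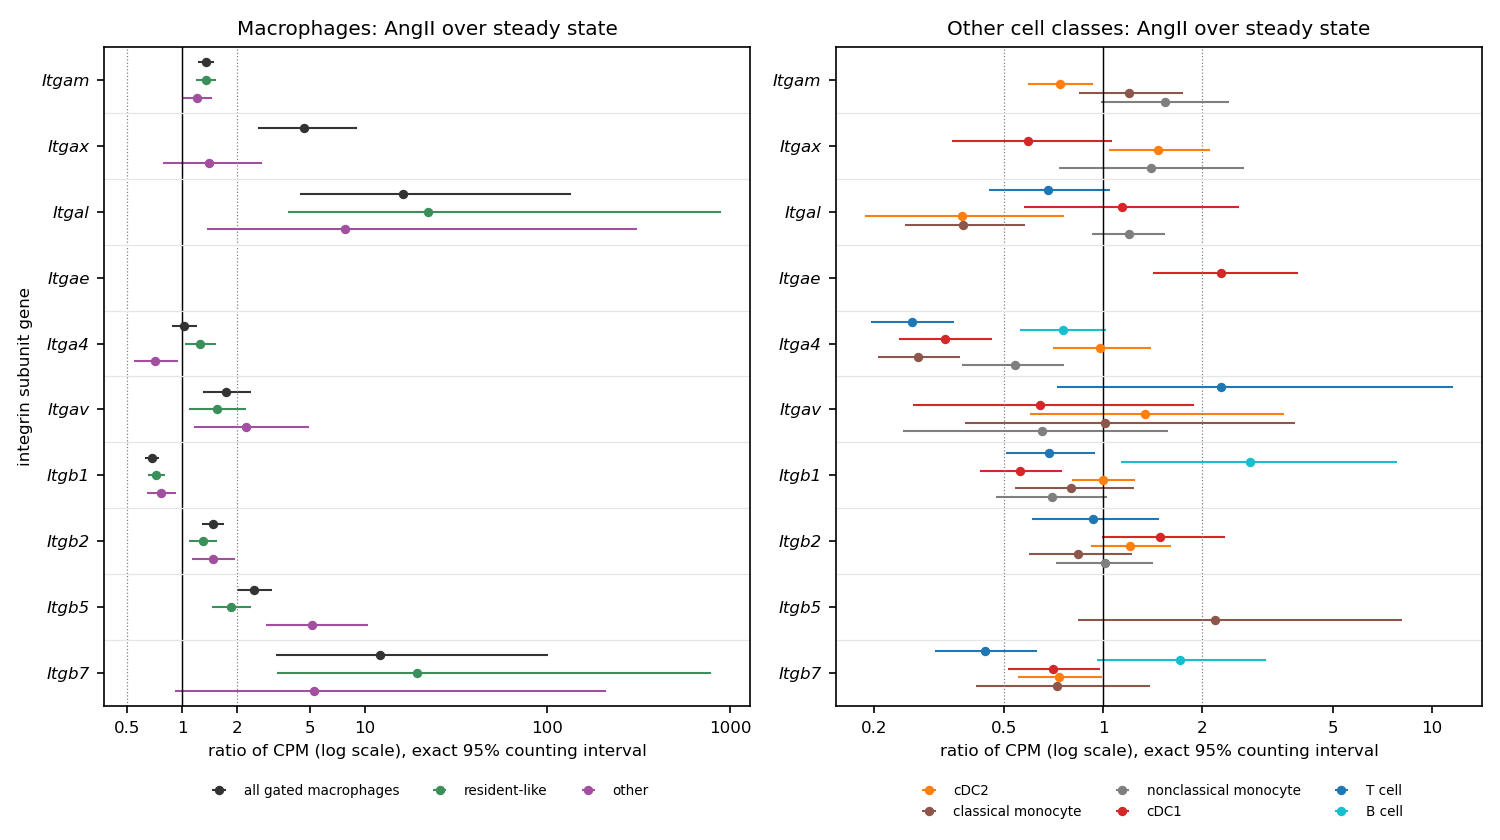
Ratio of CPM on AngII to CPM at steady state (x axis, log scale; points) with exact 95% counting intervals (lines) for each integrin gene (y axis), in macrophages and their subsets and in other cell classes. Genes under 20 UMIs in both libraries together, or with 0 UMIs in one, are not drawn; dotted lines mark 2-fold. *Itga4* lies at 0.26 in T cells, 0.33 in cDC1 and 0.27 in classical monocytes but at 1.02 in all macrophages.

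*Itga4* was lower on AngII in several other classes. T cells held 399 CPM (27 cells) at steady state and 105 CPM (243 cells) on AngII, a ratio of 0.26 (0.20 to 0.35), cDC1 held 354 and 116 CPM (0.33, 0.24 to 0.46; 8 and 183 cells), and classical monocytes held 701 and 191 CPM (0.27, 0.21 to 0.37; 7 and 286 cells). Nonclassical monocytes held 1043 and 560 CPM (0.54, 0.37 to 0.76), B cells 390 and 294 CPM (0.75, 0.56 to 1.02), and cDC2 149 and 146 CPM (0.98, 0.70 to 1.39). Without the deepest 10% of cells in each class, the T cell ratio was 0.50. The steady-state groups of cDC1, classical monocytes and nonclassical monocytes had 12 cells or fewer. When cells were clustered instead, 0 of 8 steady-state cDC1 and 0 of 7 steady-state classical monocytes fell in a cluster named for their class, against 51.4% and 59.4% of those on AngII, so every ratio for these classes rests on the marker gate.

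Of the 7 members tested in T cells, 2 were at least 2-fold lower on AngII (*Itga4* and *Itgb7*) and 2 higher by their ratio (*Itgav* and *Itgam*), neither with an interval that leaves out 1, where 9.7% of 7048 genes were lower, 24% higher and 33.7% apart in either direction. *Itgb7* stood at 226 and 98.5 CPM, a ratio of 0.44 (0.31 to 0.63), which was 0.94 without the deepest 10% of cells, and *Itgb1* at 264 and 181 CPM (0.68, 0.51 to 0.94). *Itgal* and *Itgb2*, the LFA-1 pair, stood at 144 and 97.6 CPM (0.68, 0.45 to 1.05) and at 125 and 116 CPM (0.93, 0.61 to 1.48). *Itgav* rested on 3 UMIs at steady state (2.28, 0.72 to 11.5), and *Itgam* on 0 against 20 UMIs, a count that passed the minimum through the AngII cells alone and whose ratio has an interval from 0.91. The deepest 10% of AngII T cells held 54.8% of the class's UMIs. Markers of other cells differed too: in T cells the 10 macrophage markers stood at 86.6 CPM (7 of 10 found) and 861 CPM (10 of 10), the 9 NK cell markers at 168 CPM (6 of 9) and 664 CPM (8 of 9), and the 8 migratory dendritic cell markers, *Ccr7* among them, at 466 CPM (2 of 8) and 141 CPM (6 of 8). How many markers are found again depends on the UMIs summed, 207954 at steady state and 1126489 on AngII. The part of such other cells or their RNA in the T cell ratios was not tested.

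In B cells 1 of 3 tested members was at least 2-fold apart, *Itgb1* at 26.0 and 72.5 CPM (ratio 2.79, 1.13 to 7.80; 7 and 20 UMIs), where 10.6% of 3781 genes were, and its ratio was 1.18 without the deepest 10% of cells. In cDC1 *Itgae* stood at 116 and 264 CPM, a ratio of 2.28 (1.42 to 3.90), *Itgb7* at 309 and 216 CPM (0.70, 0.51 to 0.97) and *Itgb1* at 399 and 222 CPM (0.56, 0.42 to 0.75). By their ratio 3 of 9 tested members were 2-fold apart in cDC1, against 30% of 6219 genes: *Itgae*, *Itga4* and *Itgam*, the last with 0 against 33 UMIs and an interval from 1.08, so not shown to be past 2-fold. In cDC2 *Itgal* was the 1 of 8 tested members past 2-fold, at 50.7 and 18.9 CPM (0.37, 0.19 to 0.76), against 22.4% of 7137 genes, and *Itgax* stood at 132 and 193 CPM (1.47, 1.04 to 2.11). In classical monocytes 4 of 9 were by their ratio, against 33.5% of 6982 genes: *Itga4*, *Itgal* at 322 and 120 CPM (0.37, 0.25 to 0.58), *Itgb5* (2.18, 0.84 to 8.12) and *Itgax*, the last with 0 against 46 UMIs and an interval from 0.68. In nonclassical monocytes 0 of 7 were, against 11.9% of 1742 genes.

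Resident-like macrophages were also set against the other macrophages within each library. On AngII 1 of 9 tested members was at least 2-fold apart, against 7.28% of 10437 genes: *Itgax* stood at 18.1 CPM (535 cells) and 51.7 CPM (939 cells), a ratio of 0.35 (0.25 to 0.49), which was 0.69 as the mean of the cells' own CPM. At steady state *Itgax* had 0 UMIs in 103 resident-like cells and 12 in 15 others (37.1 CPM), which is under the minimum of 20. *Itgb1* was slightly higher in them in both, at 511 and 406 CPM at steady state (ratio 1.26, 1.04 to 1.53) and 368 and 309 CPM on AngII (1.19, 1.09 to 1.3).

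For *Itgb5* and *Itga4* the direction differed between the libraries. *Itgb5* stood at 72.9 CPM in resident-like cells and 34.1 CPM in others at steady state, a ratio of 2.14 (1.14 to 4.46), the 1 of 6 tested members past 2-fold there, against 23.1% of 7245 genes. It rested on 11 UMIs in the others, and its direction turned after thinning (ratio 0.69). On AngII it stood at 135 and 175 CPM (0.77, 0.67 to 0.88). *Itga4* had ratios of 0.68 (0.50 to 0.93) at steady state and 1.20 (1.05 to 1.37) on AngII. *Itgam* had ratios of 0.83 and 0.93, and both intervals held 1. *Itgb2* had 0.89 (0.66 to 1.21) and 0.78 (0.70 to 0.87).

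**Figure D4:**
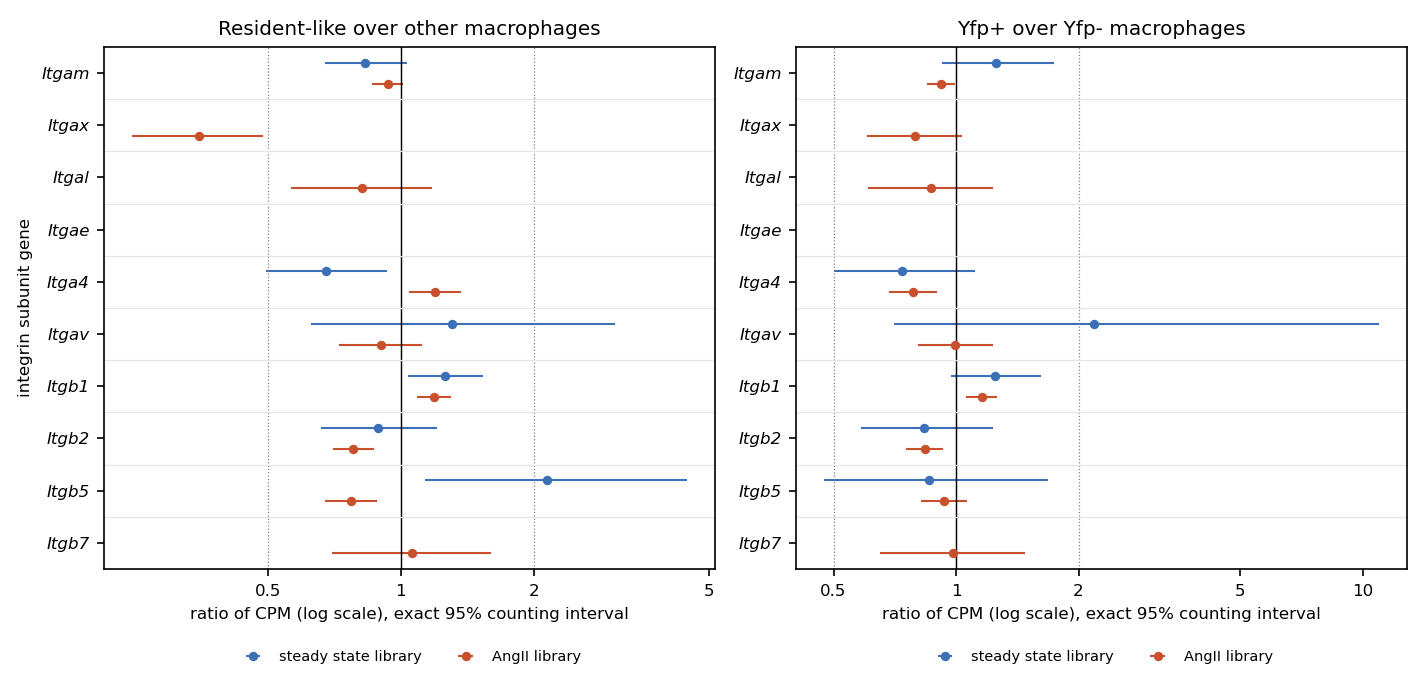
Ratio of CPM (x axis, log scale; points) with exact 95% counting intervals (lines) for each integrin gene (y axis), for resident-like over other macrophages and for Yfp+ over Yfp- macrophages, in the steady-state and AngII libraries. Genes under 20 UMIs or with 0 UMIs in a group are not drawn; dotted lines mark 2-fold. *Itgax* on AngII lies at 0.35 between resident-like and other cells, and the Yfp ratios on AngII lie within 2-fold.

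Macrophages with the lineage reporter (Yfp+, from 1 EYFP UMI) had levels of the tested integrins within 2-fold of those without it on AngII: 0 of 9 tested members were past 2-fold, against 3.85% of 10437 genes. The member under 20 UMIs, *Itgae*, had 2 UMIs in Yfp+ and 16 in Yfp- cells (0.14, 0.016 to 0.61). *Itgam* stood at 406 CPM in 274 Yfp+ and 442 CPM in 1200 Yfp- cells (0.92, 0.85 to 0.99), *Itga4* at 124 and 158 CPM (0.78, 0.68 to 0.90), *Itgb2* at 226 and 269 CPM (0.84, 0.76 to 0.93) and *Itgb1* at 359 and 310 CPM (1.16, 1.06 to 1.26). Within resident-like cells *Itgb2* stood at 217 and 207 CPM (1.05, 0.88 to 1.26), *Itga4* at 136 and 187 CPM (0.73, 0.59 to 0.89), and *Itgax*, the 1 of 9 tested members past 2-fold there against 4.77% of 8590 genes, at 10.5 and 28.6 CPM (0.37, 0.18 to 0.71; 15 and 29 UMIs). At steady state every tested interval held 1 in 92 Yfp+ and 26 Yfp- cells, and 1 of 6 members was past 2-fold (*Itgav*, 47 and 3 UMIs, ratio 2.18, 0.70 to 11), against 16.7% of 7245 genes. The Yfp call moved with depth, since Yfp+ macrophages had a median of 6895 UMIs and Yfp- ones 952 on AngII, and 11174 and 6500 at steady state. The part of depth in these ratios was not tested beyond the alternatives.

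Integrins act as pairs, and both subunits were looked for in the same cell. At steady state *Itgam* and *Itgb2* were found together in 59.3% of macrophages (70 of 118; interval 49.9 to 68.3) and *Itga4* and *Itgb1* in 58.5% (69 of 118), while *Itgav* was found with *Itgb1* in 24.6% and with *Itgb5* in 11%. On AngII these shares were 25.4% (374 of 1474), 19.3%, 12.1% and 9.97%. Each share also depends on how often the single subunits were found. At steady state *Itgam* was found in 78.8% of macrophages, *Itga4* in 60.2% and *Itgb1* in 89.0%. Pairing beyond such separate detection was not tested. Steady-state cells were deeper. Thinning to 1000 UMIs left out shallower cells, so 116 of 118 macrophages remained at steady state and 800 of 1474 on AngII. Among these the order turned: *Itgam* and *Itgb2* were together in 3.45% at steady state and 8.13% on AngII. *Itgae* and *Itgb7* were together in 6 of 8 cDC1 at steady state and 41 of 183 on AngII (22.4%, 16.6 to 29.1), and in 3 of 1474 AngII macrophages. In T cells on AngII *Itgal* and *Itgb2* were together in 17.3% (42 of 243), and *Itgam* and *Itgb2*, where *Itgam* should be background, in 0.823% (2 of 243).

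Other genes of the pathway were compared in macrophages in the same way, from 3 lists of 76 genes, of which 50 had at least 20 UMIs. Of these, 14 were at least 2-fold higher and 2 lower on AngII, where 8.76% and 8.31% of all genes were, with a median log2 ratio of 0.33 against -0.01 over all genes. The lists were chosen with earlier results of these data known, so these counts are a description. Of the higher genes named below, *Thbs1*, *Parvg*, *Src* and *Itga1* passed this minimum through the AngII cells alone, as did others not named. Among 12 tested ligands 6 were higher and 1 lower: *Thbs1* (thrombospondin 1) stood at 3.46 and 523 CPM (5 and 3204 UMIs; ratio 151, 64.7 to 466) and *Spp1* (osteopontin, a ligand of alpha v and alpha 4 integrins) at 20.7 and 1197 CPM (57.8, 40.4 to 85.7), whereas *Mfge8*, a bridging protein for apoptotic cells, stood at 21.4 and 8.15 CPM (0.38, 0.24 to 0.62) and *Edil3* at 6.91 and 3.59 CPM (0.52, 0.24 to 1.23). Among 34 tested adaptors and activators 6 were higher and 1 lower: *Parvg* (a parvin of blood cells) had 2 and 88 UMIs (10.4, 2.79 to 87.1), the kinase *Src* had 0 and 34, *Filip1l* stood at 117 and 68.7 CPM (0.59, 0.49 to 0.71), and the talin *Tln2* at 26.3 and 2.28 CPM (0.087, 0.044 to 0.16). Of 17 other integrin subunits 4 could be tested, and 2 of them were higher: *Itga6* at 17.3 and 86.8 CPM (5.02, 3.36 to 7.83) and *Itga1* at 1.38 and 4.89 CPM (3.54, 0.90 to 30.6), while *Itga5* had a ratio of 1.60 (1.11 to 2.36) and *Itga9* of 0.94 (0.68 to 1.34).

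The genes whose levels went most closely with each member were sought over the 12 groups of at least 20 gated cells (classes in each library), among 9180 genes, by Pearson's r of log2(CPM + 20). These points share 2 libraries, so the values are a description. *Itgam* was closest to *Sirpa* (r = 0.97), an inhibitory receptor of myeloid cells, and *Pla2g7* (0.96), *Itgb5* to *Plxna4os1* (0.98) and *Trem2* (0.97), a lipid-sensing macrophage receptor, and *Itgb2* to *Laptm5* (0.96) and *Nadk* (0.95). *Itgae* was closest to *Gm43914* (0.97) and *Snx22* (0.96), the latter a marker that gates cDC1. *Itgal* was closest to *Ammecr1* (0.96) and *Sipa1l1* (0.95), *Itgb1* to *Abhd16a* (0.97) and *Limk1* (0.89), and *Itgav* to *Fcgr4* (0.94) and *Cd300lb* (0.94). *Itgax* (*Rin3* 0.92, *Tet2* 0.91), *Itga4* (*Arl5c* 0.91, *Traf6* 0.90) and *Itgb7* (*Rps27a* 0.89, *Tmsb10* 0.89) had the lowest leading values. Between members, *Itgam* had r = 0.84 with *Itgav*, 0.82 with *Itgb5*, 0.77 with its partner *Itgb2*, 0.69 with its neighbour *Itgax* and -0.49 with *Itgb7*.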

How the data were processed

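Single CD45+ cells were measured in 1 steady-state and 1 AngII library. Per the study's methods, the authors demultiplexed 10x 3′ v3.1 reads, counted them with CellRanger 3.1.0 (genome GRCm38.p6, genes of GENCODE M24 plus the eYFP sequence), and deposited UMI counts without normalization.

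Cells passing the study's filter were scored per class: the mean over markers of a cell's CPM divided by the mean in cells holding at least 40% of the markers (at least 3), floored at 50 CPM and capped at 3. A class needed 2 markers, a score of 0.25 and a next-best score of at most 0.5 of its own. The members, lists and markers were chosen with earlier results of these data known, and the scoring was settled after class marker levels had been seen. Doublets were not called; cells of several classes were left out.

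Summed UMIs are in CPM, with exact Poisson intervals; ratios have exact conditional binomial intervals and shares Clopper-Pearson intervals, all at 95%. Ratios counted from 20 UMIs in both groups together, which 1 group alone could supply, for members and for all genes. A ratio of 2-fold marked a difference, and 3 UMIs were the floor for counts of 0. Genes named were all members, the 2 highest and 2 lowest ratios of each pathway list and the 2 genes most like each member. The code was tested on simulated data. Python 3.11.15, NumPy 2.4.6, SciPy 1.17.1, pandas 2.3.3, scikit-learn 1.9.0, leidenalg 0.10.2 and Matplotlib 3.10.9 were used. In all, 15 other settings were run (the filter, gate, scale and thresholds), 1 of them (without the deepest 10% of cells in each class) chosen after seeing the data.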

Additional observations from a re-analysis of the deposited data

Results flagged for a closer look

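Effects with opposite directions, both with a counting interval that leaves out 1, are given here, and the difference between them was not tested. Between AngII and steady state, *Itgam* had a ratio of 1.34 in macrophages and 0.74 in cDC2, *Itgal* 16.2 in macrophages and 0.37 in cDC2, *Itgb7* 12 in macrophages and 0.44 in T cells, and *Itgb1* 2.79 in B cells and 0.56 in cDC1. Between resident-like and other macrophages, *Itga4* had a ratio of 0.68 at steady state and 1.20 on AngII, and *Itgb5* 2.14 at steady state and 0.77 on AngII.

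The 40 steady-state and 221 AngII barcodes outside the filter, which no comparison used, held the 10 genes at 1792 and 1536 CPM together, against 1435 and 1401 CPM in the cells kept, and a count of 0 would have allowed up to 8.29 and 1.21 CPM.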

How the results depend on the processing

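Of 123 counts recomputed under 15 alternatives, 94 stayed within 1.5 times, and of 1629 levels, ratios and shares, 1336 stayed within the counting interval, 291 moved outside it and 2 turned. These 2 were *Itgav* in T cells, AngII over steady state, with classes from clusters (log2 ratio -0.047), and *Itgb5* in steady-state resident-like over other macrophages after thinning (-0.54). Of 11 ratios past 2-fold, 9 kept their direction under every alternative that gave a value, and of 47 others, 25 changed direction under at least 1.

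In macrophages, the count of members past 2-fold between AngII and steady state (4) stayed within 1.5 times throughout. In T cells (4, with *Itgam* at 0 against 20 UMIs counted) it was 2 with at least 1000 genes per cell, under the stricter gate, with cells of several gates kept, after thinning, with at least 100 UMIs and without the deepest 10% of cells. In B cells (1) it was 2 under the stricter gate, with cells of several gates kept and at 1.5-fold, 5 with classes from clusters, and 0 after thinning, without the cell with the most UMIs, with at least 100 UMIs and without the deepest 10%. Between resident-like and other macrophages (1 in each library) it was 2 at steady state under the stricter gate or with cells of several gates kept and 0 with at least 100 UMIs, and on AngII 2 with all barcodes and 0 with the mean of the cells' own CPM. Between Yfp+ and Yfp- cells it was 0 at steady state (1) with all barcodes or at least 100 UMIs, and on AngII (0) 1 under the stricter gate, with cells of several gates kept, with the mean of the cells' own CPM and in resident-like cells alone. Pairs found in at least 5% of macrophages (4 and 4) were 0 at steady state and 1 on AngII after thinning, and 7 on AngII in cells of at least 2000 UMIs. Pathway genes past the fold (16) were 27 at 1.5-fold. The causes were not tested.

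Clusters gave the same class to 82.3% of gated cells at steady state and 80.0% on AngII, but to 0 of the steady-state cDC1 and classical monocytes. No paired analysis was possible because each condition has 1 library. Depth limits the AngII library most, where 45.5% of cells held under 1000 UMIs and the deepest 10% of macrophages held 54.5% of the class's UMIs, against 26.2% at steady state.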
